A study of Mus musculus with 12 samples.

Results

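The baseline of gene expression in adult mouse cortex was read from wild-type (WT) poly(A) RNA alone, with no comparison between genotypes. The 4 WT libraries were chosen by the genotype in the sample labels, out of 12 libraries in 3 groups of 4 that the series holds. The other groups, labelled KO and HxD in a study of Tet1, which encodes an enzyme that oxidises 5-methylcytosine in DNA, were not used. The labels give no treatment, age beyond adult, sex or strain, and do not say whether the 4 libraries came from separate animals, so the spread between them may be technical. WT 1 to WT 4 held 8752001, 10915574, 8310783 and 10042606 estimated counts, and 13422 to 13666 gene entries were above 0 in a library. Levels are given as CPM, the counts of a gene scaled to a library total of 1000000. Where genes are compared with each other, CPM is divided by the length in kb of the longest transcript.

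The cerebral cortex is a layered sheet in which glutamatergic projection neurons are the main neuron class and GABAergic interneurons, astrocytes, oligodendrocytes, microglia and vessel cells make up the rest. Poly(A) RNA from whole tissue mixes all of them, together with any attached meninges, choroid plexus or underlying tissue, so fewer cells of a type and less RNA per cell cannot be told apart. The label was checked against marker genes. Slc17a7, the vesicular glutamate transporter of cortical projection neurons, stood at 2806, 3099, 2520 and 2134 CPM in WT 1 to WT 4, and Tbr1, a transcription factor of these neurons, at 202, 250, 181 and 240 CPM. Neurod6 and Emx1, both markers of the dorsal forebrain, were at 147 ± 23.1 and 37.4 ± 8.58 CPM (SD, n = 4).

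The counts themselves limit what can be read from single genes. Gapdh and the clathrin heavy chain Cltc, which every cell uses, were listed at 0 in all 4 libraries, and Actb held 13, 6, 3 and 7 counts. None of the 15 mitochondrially encoded genes searched for matched a symbol that was kept, so the rankings and shares below leave them out. Of the 21713 symbols kept, 6246 were listed at 0 in all 4. A further 475 genes, or 5.43% of the 8748 that reached 100 counts in some library, fell to 3 counts or fewer in another (named step genes below). Low or missing values of a gene are therefore not evidence that cortex lacks its RNA, and well-known cortical genes are among them. Camk2a, the alpha subunit of the most abundant synaptic kinase, was at 26.5, 46.5, 5.78 and 109 CPM, the glial glutamate transporter Slc1a2 at 5.41 to 8.98 CPM and the major myelin protein gene Mbp at 16.1 to 37.5 CPM. Csf1r of microglia, Rorb of layer 4 and the astrocyte bicarbonate transporter Slc4a4 were listed at 0 in all 4 libraries.

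One short noncoding RNA held more counts than any other gene kept in all 4 libraries. Bc1 is a neuron-specific RNA transcribed by RNA polymerase III that travels into dendrites and represses local translation. It took 5.65%, 4.98%, 7.16% and 5.55% of the counts of WT 1 to WT 4, which is 56493, 49784, 71550 and 55520 CPM. WT 3 was highest and WT 2 lowest, by 1.44-fold. The 10 genes with the most counts held 9.27% to 11.2% of a library with Bc1 and 4.28% to 5.03% without it. Genes that RefSeq classes as lncRNA together held 5.38% to 7.53% of counts, and 0.376% to 0.465% without Bc1. The labels name oligo d(T) beads for the selection of RNA, so its sequence is shown for the internal run of 23 A, in capitals, at positions 77 to 99 from its 5′ end. The transcript of 168 bases lies at chr7:144914470-144914637 on the plus strand of GRCm38 in GENCODE vM21. Whether that run bears on the share of Bc1 was not tested.
Bc1: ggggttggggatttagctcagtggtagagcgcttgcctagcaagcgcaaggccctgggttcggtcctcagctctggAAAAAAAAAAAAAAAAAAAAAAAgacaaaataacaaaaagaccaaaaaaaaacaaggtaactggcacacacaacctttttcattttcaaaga
Of its 31-base windows, 40.6% also occur in transcripts of 9 other genes, so some of its counts could belong elsewhere.

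Behind Bc1, the 3 genes with the most counts were Kif5a, Lars2 and Camk2n1. Kif5a, the neuronal kinesin-1 heavy chain that carries cargo along axons, was at 7765, 8346, 8751 and 11716 CPM, with WT 4 above the other 3. Lars2, the mitochondrial leucyl-tRNA synthetase, was at 7100, 6684, 7013 and 6966 CPM and differed by 1.06-fold at most. Camk2n1, an inhibitor of the calcium/calmodulin kinase CaMKII, was at 4986, 5613, 3870 and 6082 CPM. These levels are set against a steep fall: 666 genes held 50% of all WT counts, 91 genes reached 1000 CPM, 2197 reached 100 CPM and 9294 reached 5 CPM, of which 9149 are protein coding and 101 are lncRNAs in RefSeq.

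Several presynaptic genes stood near the top. Snap25, a SNARE protein of vesicle fusion, was at 3662, 5572, 3284 and 4655 CPM, lowest in WT 3 and highest in WT 2. Cplx2, which clamps the SNARE complex, was at 2869 ± 306 CPM (SD, n = 4), and Syp, an integral vesicle membrane protein, at 2267 ± 110 CPM. Syt1, the calcium sensor of fast release, was at 1895 ± 377 CPM and the active-zone scaffold Bsn at 1537 ± 249 CPM. The 29 genes of vesicle cycling and release summed to 28457 ± 3069 CPM, 2.85% of all counts. On the dendritic side, Ppp1r9b, the spine scaffold spinophilin, was at 2761 ± 82.0 CPM. Ddn, whose mRNA is found in dendrites, was at 3113, 2290, 3042 and 1791 CPM. Nrgn, a postsynaptic calmodulin-binding protein, was at 2168, 3517, 1953 and 3159 CPM, with WT 2 and WT 4 apart from WT 1 and WT 3. The calmodulin genes Calm3 and Calm2 were even over the libraries at 3354 ± 146 and 2483 ± 80.9 CPM, while the 20 genes of calcium sensing and calmodulin signalling summed to 2.01% of counts.

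The other genes in the top 25 serve secretion, membranes, signalling and translation. Cpe, the carboxypeptidase that trims neuropeptide precursors, was at 4057, 3403, 4656 and 3992 CPM. Sparcl1, a matricellular protein secreted by astrocytes, was at 3471 ± 433 CPM, and Glul, the glutamine synthetase of astrocytes, at 3062 ± 338 CPM. Scd2, a stearoyl-CoA desaturase, was at 2857 ± 291 CPM, and Adcy1, a calmodulin-stimulated adenylyl cyclase, at 2498 ± 255 CPM. Hpcal4, a neuronal calcium sensor, was at 2684, 2318, 2918 and 1550 CPM, lowest in WT 4, as Ddn was. Aplp1, a relative of the amyloid precursor protein, and Psap, the precursor of lysosomal saposins, differed by at most 1.05-fold and 1.06-fold between the libraries. The translation factors Eef1a1 and Eef2 were at 2367 ± 145 and 2282 ± 221 CPM. For Eef1a1, 72.3% of the 31-base windows of the transcript also occur in transcripts of other genes, many of them pseudogenes, so its level is uncertain. The share of such windows was 23.4% for Glul and 23.0% for Calm2.

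**Figure D1:**
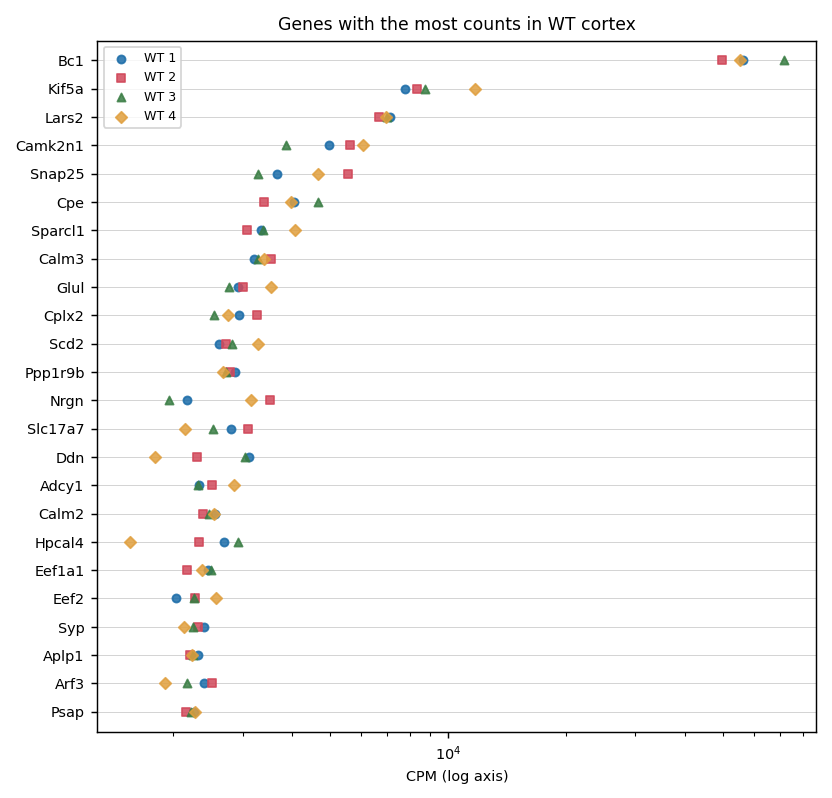
CPM of 24 of the 25 genes with the most counts, on a log axis, 1 point for each of the 4 WT libraries. Bc1 lies between 49784 and 71550 CPM, Kif5a comes next between 7765 and 11716 CPM, and the points of Lars2, Aplp1 and Psap lie almost on top of each other.

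Dividing by transcript length moved short transcripts up. Of the 25 genes with the most CPM, 14 were also among the 25 with the highest CPM per kb. Bc1 stood first on this scale too, at 347244 ± 55316 CPM per kb. Next came Cst3, the secreted protease inhibitor cystatin C, at 2306 ± 464 CPM per kb, Calm2 at 2060 ± 67.1, Cpe at 1902 ± 242 and Nrgn at 1858 ± 521 CPM per kb (SD, n = 4). Genes that entered only by length include Rplp1, a ribosomal stalk protein, at 1774 ± 376 CPM per kb, the cytochrome oxidase subunit Cox8a at 1401 ± 115, the actin-sequestering thymosin Tmsb4x at 1368 ± 174, ubiquitin Ubb at 1304 ± 22.4 and Selenow, a small selenoprotein, at 1219 ± 136. Rplp1 and Ubb share 75.1% and 66.7% of their 31-base windows with other genes. Mir6236, annotated as a microRNA gene, stood at 1580 ± 609 CPM per kb on a transcript of 123 nt. It was at 133, 126, 256 and 262 CPM, and WT 3 and WT 4 lay above WT 1 and WT 2. Whether its counts come from a microRNA transcript was not tested. Kif5a kept its place among the 10 highest, at 1453 ± 280 CPM per kb.

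Markers of astrocytes and neurons dominated the cell-type programmes. The 22 astrocyte markers summed to 3982 ± 432 CPM per kb, the 13 pan-neuronal markers to 3771 ± 356 and the 11 markers of excitatory neurons to 3172 ± 606 (SD, n = 4). The ranges of these sums over the libraries overlap, so their order is not set by these 4 libraries. GABAergic interneuron and myelin markers followed at 1484 ± 169 and 1478 ± 618 CPM per kb, then blood, from haemoglobin genes, at 709 ± 207, microglia at 463 ± 47.5, endothelium at 254 ± 15.2, oligodendrocyte precursors at 122 ± 18.3 and mural cells at 111 ± 9.96. A sum depends on which genes a list holds and on the genes listed at 0, so it ranks the lists and is no share of cells. Of neighbouring tissue, striatal genes, several of which cortex also expresses, summed to 316 ± 86.5 CPM per kb. The other lists were far lower, at 52.2 ± 22.6 CPM per kb for meningeal fibroblasts, 34.7 ± 11.2 for thalamus, 12.5 ± 5.21 for hippocampus, 12.1 ± 6.22 for ependyma, 10.2 ± 12.3 for choroid plexus and 3.15 ± 1.01 for olfactory bulb.

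**Figure D2:**
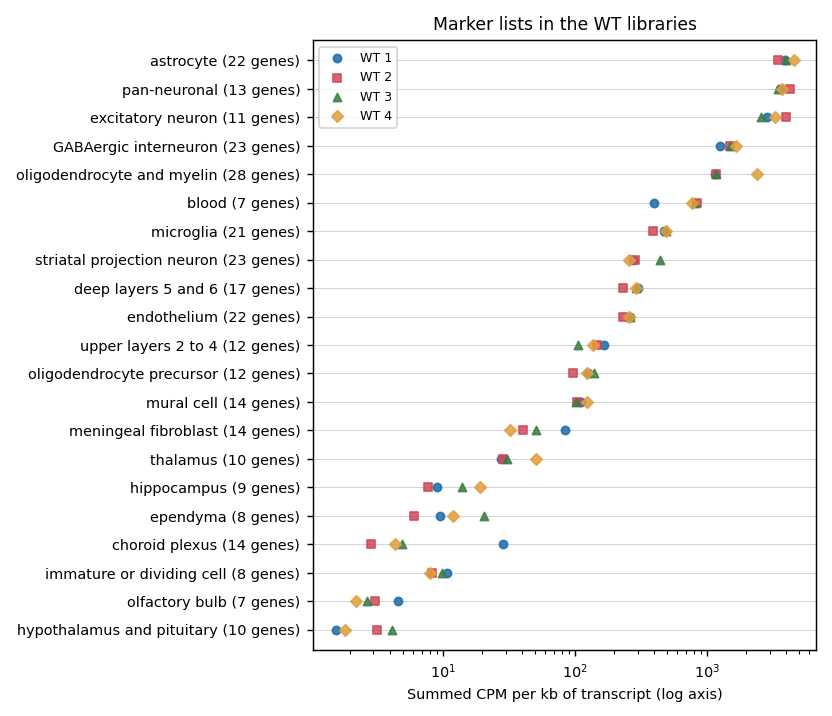
Summed CPM per kb of transcript of each marker list, on a log axis, 1 point for each of the 4 WT libraries. The pan-neuronal, excitatory and astrocyte lists lie at 2570 or above and the lists of neighbouring tissue other than striatum below 100. Single libraries stand apart for myelin (WT 4), blood (WT 1), striatal (WT 3), meningeal (WT 1) and choroid plexus genes (WT 1).

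Within neurons, excitatory markers were led by Nrgn and Slc17a7, with Nptx1, a secreted pentraxin, at 687 ± 83.2 CPM and the vesicle protein Sv2b at 582 ± 87.5 CPM. Layer markers were lower, with sums of 139 ± 24.8 CPM per kb for upper and 278 ± 31.3 for deep layers. In the upper-layer list Rasgrf2 was at 305, 270, 173 and 215 CPM and the homeobox gene Lhx2 at 147 ± 23.8 CPM, while Cux2 and Otof were step genes. In the deep-layer list Bcl11b, a factor of subcortical projection neurons, was at 142 ± 28.3 CPM, Rprm at 134 ± 31.3, Crym at 123 ± 38.5 and Tle4, of layer 6, at 102 ± 17.5 CPM. Cplx3, a marker of subplate cells, was at 41.7 ± 10.8 CPM.

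Of the 18 interneuron markers scored, 5 differed at least 2-fold between libraries (27.8%), against 20.7% of all genes that are no step genes, and the median SD of the list was 0.284 against 0.218 over those genes. Gad1 and Gad2, which make GABA, were at 436 ± 38.7 and 225 ± 17.4 CPM, and the vesicular transporter Slc32a1 at 152 ± 22.3 CPM. Among subclass genes, Sst led at 397 ± 58.1 CPM, then Lamp5 at 291 ± 116, Npy at 109 ± 21.6, Pvalb at 97.4 ± 52.8 and Vip at 80.4 ± 12.7 CPM. Per kb of transcript the order was Sst at 551, Npy at 192, Lamp5 at 149, Pvalb at 99.7 and Vip at 31.8 CPM per kb. Whole tissue does not show which cells hold these RNAs, so both orders rank genes and not interneuron subclasses. Lamp5 was at 228, 396, 160 and 380 CPM, and whether its counts come from interneurons was not tested. Pvalb, the calcium buffer of fast-spiking cells, was at 52.3, 92.9, 71.8 and 173 CPM, highest in WT 4 by 3.30-fold over WT 1. Nefh and Nefm, neurofilament genes of large axons, were highest in WT 4 too, at 163 and 470 CPM against 83.4 to 132 and 267 to 413 CPM in the others. Reln was listed at 0 in 3 libraries and held 1.32 CPM in WT 3.

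Glial and vascular markers included genes with almost no spread. Among astrocyte genes Aldoc was at 1505 ± 200 CPM, Clu at 1342 ± 224 and the glutamate transporter Slc1a3 at 1065 ± 105 CPM. S1pr1, a sphingosine-1-phosphate receptor, was at 276, 275, 278 and 282 CPM and was among the 15 most even genes of the table. Gfap, the intermediate filament of reactive and white-matter astrocytes, was at 248, 94.4, 276 and 287 CPM, lowest in WT 2. Among microglial genes the complement genes C1qa, C1qb and C1qc were at 78.1 ± 9.65, 74.3 ± 10.5 and 71.5 ± 3.96 CPM and Tmem119 at 45.2 ± 6.43 CPM, while the receptor P2ry12 was at 8.23, 2.93, 4.09 and 0 CPM. In vessels, the glucose transporter Slc2a1 was at 135 ± 14.1 CPM, the tight-junction gene Cldn5 at 74.9 ± 18.1, the endothelial cadherin Cdh5 at 22.7 ± 1.14 and Notch3 of mural cells at 24.9 ± 0.869 CPM. Pdgfra, the receptor that marks oligodendrocyte precursors, was at 74.8, 77.7, 83.1 and 87.2 CPM.

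Of gene groups defined by function, the cytoskeleton list took the largest share of counts after noncoding RNA and vesicle release. Per kb of transcript the noncoding RNA list stayed first, at 347564 ± 55284 CPM per kb, nearly all of it Bc1. The order of the other lists differed. A sum also depends on list size, from 16 matched genes for noncoding RNA to 79 for the ribosome. Ribosome genes summed to 18163 ± 3119 CPM per kb, respiratory chain genes to 9736 ± 855 and calcium sensing genes to 9226 ± 850. Vesicle release followed at 7894 ± 740 and the cytoskeleton at 7257 ± 316 CPM per kb. The 25 cytoskeleton genes summed to 25467 ± 1782 CPM, 2.55% of counts. Among them Map1b was at 2109 ± 161, the kinesin Kif5c at 2102 ± 287 and the spectrin Sptbn1 at 1816 ± 105 CPM. The tubulins Tuba1a and Tubb4a were at 1511 ± 121 and 995 ± 121 CPM. For Tuba1a, 77.0% of the 31-base windows also occur in transcripts of other genes, so its level is uncertain. The 79 cytosolic ribosome genes summed to 17258 ± 2690 CPM, 1.73% of counts, and the 61 matched genes of the nuclear-encoded respiratory chain to 9381 ± 782 CPM, or 0.938%. Neuropeptide and granin genes took 0.955% of counts and were led by Cpe, Pcsk1n at 1149 ± 127 and Chgb at 691 ± 35.1 CPM, with the peptide precursors Cck at 555 ± 143 and Sst below them. The sodium pump beta subunit Atp1b1 was at 2201 ± 185 CPM, and the chaperones Hsp90ab1 and Hspa8 at 2027 ± 95.6 and 1233 ± 138 CPM. Among glutamate receptor subunits Grin2b was at 958 ± 188, Gria2 at 756 ± 61.1 and Grin1 at 262 ± 38.9 CPM. The long noncoding RNAs Malat1 and Peg13 were at 986 ± 184 and 477 ± 89.4 CPM.

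How far the 4 libraries differed was measured for the 9294 genes with a mean of at least 5 CPM, on log2(CPM + 0.5). The median SD of a gene over the libraries was 0.229, and the middle 80% of genes ran from 0.0838 to 0.931. The highest library was at least 2-fold above the lowest for 24.1% of these genes, and for 20.7% of the 8897 that are no step genes. The libraries correlated at 0.842 to 0.869 (Pearson, pairs of libraries, across genes, which are not independent replicates).

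Level and gene structure went with this spread. At 5 to 20 CPM 42.2% of genes differed at least 2-fold, at 20 to 100 CPM 19.6%, at 100 to 1000 CPM 211 of 2106 genes, and from 1000 CPM 2 of 91 genes. The number of RefSeq transcripts of a gene went with it too: 12.5% of the 2536 genes with 1 transcript differed at least 2-fold, against 16.6%, 21.2% and 24.4% for 2, 3 and 4 transcripts and 38.4% of the 3140 genes with 5 or more. The share of step genes rose from 1.06% to 8.82% over the same classes. The part that the assignment of reads to transcripts has in this was not tested.

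**Figure D3:**
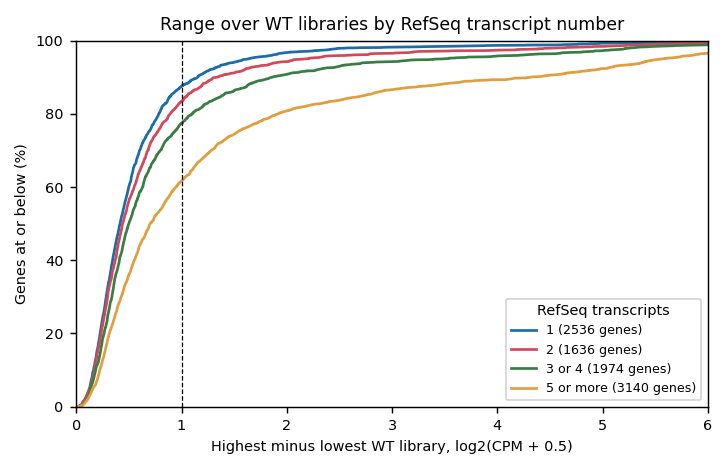
Cumulative share of genes (percent) by the difference between the highest and the lowest WT library in log2(CPM + 0.5), for genes averaging 5 CPM or more, in 4 classes of RefSeq transcript number. The dashed line marks a difference of 1, or 2-fold: 12.5% of genes with 1 transcript lie to its right and 38.4% of genes with 5 or more.

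The genes at both ends of the spread differed in transcript number too. They were taken at different levels, at least 100 CPM for even genes and at least 10 CPM for variable genes. The part of level in the contrast was not tested. Of the 7822 genes of at least 10 CPM that are no step genes, 2217 have 1 RefSeq transcript. The 15 most even genes of at least 100 CPM differed by 1.01-fold to 1.03-fold between libraries and 9 of them have 1 RefSeq transcript. The share with 1 transcript among all genes of at least 100 CPM was not counted. The even genes include Rab5a, a GTPase of early endosomes, at 193, 194, 191 and 192 CPM, and the protein disulfide isomerase P4hb at 175, 175, 173 and 177 CPM. Others are the synaptic adhesion protein gene Lrrc4b at 370 ± 3.67 CPM, the vesicle membrane protein Scamp5 at 650 ± 7.79 CPM and the imprinted gene Peg3 at 405 ± 4.95 CPM. Morf4l1-ps1, the most even of all at 102 ± 0.476 CPM, is a pseudogene with 95.3% of its windows in transcripts of Morf4l1. At the other end, of the 25 most variable genes that are no step genes, 16 have 5 or more transcripts and 1 has a single one. Of the 9294 genes of at least 5 CPM, step genes included, 3140 have 5 or more. In their lowest library 15 of the 25 held 10 counts or fewer, a share that was not counted over all genes. Myh10, a nonmuscle myosin, was at 5.71, 506, 350 and 379 CPM, the kinase Ptk2b at 414, 371, 8.90 and 11.8 CPM and the cell adhesion gene Cntn1 at 11.2, 191, 1.20 and 60.7 CPM. Map2, the classical dendritic microtubule protein, was at 25.8, 22.6, 415 and 30.6 CPM.

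Step genes were spread over all 4 libraries. They fell low in 1 library in 296 cases, in 2 in 108 and in 3 in 71, and 79, 57, 94 and 66 were low in only WT 1, WT 2, WT 3 and WT 4. The ribosomal gene Rpl12 was at 207, 184, 0 and 276 CPM, the histone methyltransferase gene Kmt2d at 0, 221, 223 and 208 CPM, and Lgi1, a secreted synaptic protein, at 185, 179, 214 and 0 CPM. The respiratory chain genes Ndufa4, at 174 CPM in WT 3 and 0 in the rest, and Uqcrh, at 0 in WT 2 and at most 55.8 CPM in the others, were of the same kind. These genes were left out of all scores below.

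Some programmes moved together between libraries in 1 direction. For each list of genes with at least 5 members at 5 CPM or more, a score per library was formed: log2(CPM + 0.5) of each member was set relative to the average of that gene in the 4 libraries, and the median of the members was taken. Of 29 lists scored, 9 had scores that differed by at least 0.5 between the highest and the lowest library: meningeal fibroblast, myelin, immediate early, thalamus, striatal, upper layers, deep layers, ribosome and oligodendrocyte precursor genes. At the steady end, cytoskeleton genes differed by 0.03, genes used by every cell by 0.07 and glycolysis genes by 0.13. With TMM factors or DESeq2 size factors in place of totals 7 lists reached 0.5, as the ribosome list (0.47 under both) and the precursor list (0.47 and 0.48) fell below it. Scores over members with 1 RefSeq transcript, added after the data were seen, ran the same way for the 6 of these lists that had enough such members. The lists and their members were chosen with earlier results of these data known. Counts of members set beside all genes, above and below, therefore describe the lists and are no independent test.

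**Figure D4:**
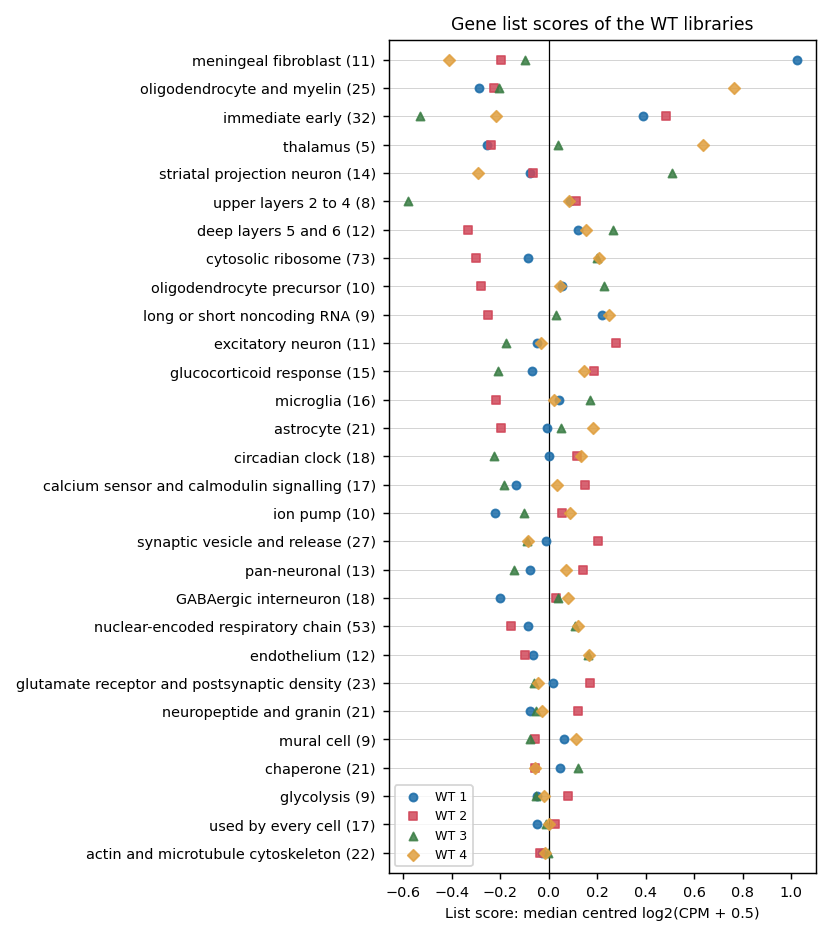
Score of each gene list in each WT library (median centred log2(CPM + 0.5) over the scored members, whose number is in brackets), ordered by range. Near the top, WT 1 stands alone on the right for meningeal genes (1.02), as do WT 4 for myelin genes (0.77) and WT 3 for striatal genes (0.51), and WT 1 and WT 2 lie together for immediate early genes (0.39 and 0.48).

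Immediate early genes were high in WT 1 and WT 2 and low in WT 3. These genes are transcribed within minutes of neuronal activity or stress without new protein synthesis, and encode transcription factors such as Fos and Egr1, synaptic effectors such as Arc and feedback phosphatases such as the Dusp genes. Their scores in WT 1 to WT 4 were 0.39, 0.48, -0.53 and -0.22, a range of 1.01, and 24 of the 32 members scored (75.0%) differed at least 2-fold, against 20.7% of all genes that are no step genes. Of the 32, 19 were lowest in WT 3, against 25.1% of all genes, and 14 each were highest in WT 1 and in WT 2, against 27% and 22.1% of all genes. Without WT 3 the range was 0.64.

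Transcription factors of the list led the pattern. Fos, a partner in the AP-1 dimer, was at 98.8, 72.9, 19.4 and 43.0 CPM. Npas4, which is induced by depolarisation in neurons, was at 73.6, 37.3, 10.7 and 21.9 CPM. Egr1 was at 512, 550, 275 and 319 CPM, and Junb at 252, 200, 95.1 and 174 CPM. In each of these 4 genes WT 1 and WT 2 held the upper values and WT 3 the lowest. Egr4 and Egr2 were low in WT 3 and WT 4 alike, at 48.1 and 41.1 CPM for Egr4 and 4.57 and 3.88 CPM for Egr2, against 117 and 102 and against 21.9 and 18.5 CPM in WT 1 and WT 2. The nuclear receptor Nr4a1 was at 132, 189, 36.0 and 49.7 CPM. Its relative Nr4a2 did not follow, at 108, 17.8, 133 and 57.6 CPM.

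Effector genes of the list moved with them. Arc, which regulates AMPA receptor endocytosis at the synapse, was at 312, 227, 32.4 and 115 CPM and differed 9.65-fold between WT 3 and WT 1. Ptgs2, the inducible cyclooxygenase, was at 34.4, 24.8, 8.78 and 11.8 CPM, Dusp6, a phosphatase of ERK, at 106, 126, 44.3 and 67.7 CPM, and the growth regulator Btg2 at 59.2, 49.1, 20.6 and 39.5 CPM. Members with little movement were Fosl2 at 52.2 to 75.2 CPM, Nr4a3 at 37.3 to 58.6 CPM, Jun at 87.0 to 136 CPM and Bdnf, the neurotrophin gene, at 10.8 to 17.1 CPM. Genes of related responses held other values in the same libraries. The clock gene Per1, which also responds to activity, was at 153, 144, 67.3 and 114 CPM and Bhlhe40 at 176, 220, 94.3 and 125 CPM, both lowest in WT 3, and 12 of 18 clock genes were lowest there, against 25.1% of all genes. The glucocorticoid target Sgk1 was at 34.4, 48.0, 10.6 and 25.7 CPM, but Fkbp5, another target, stayed at 44.6 to 55.0 CPM.

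**Figure D5:**
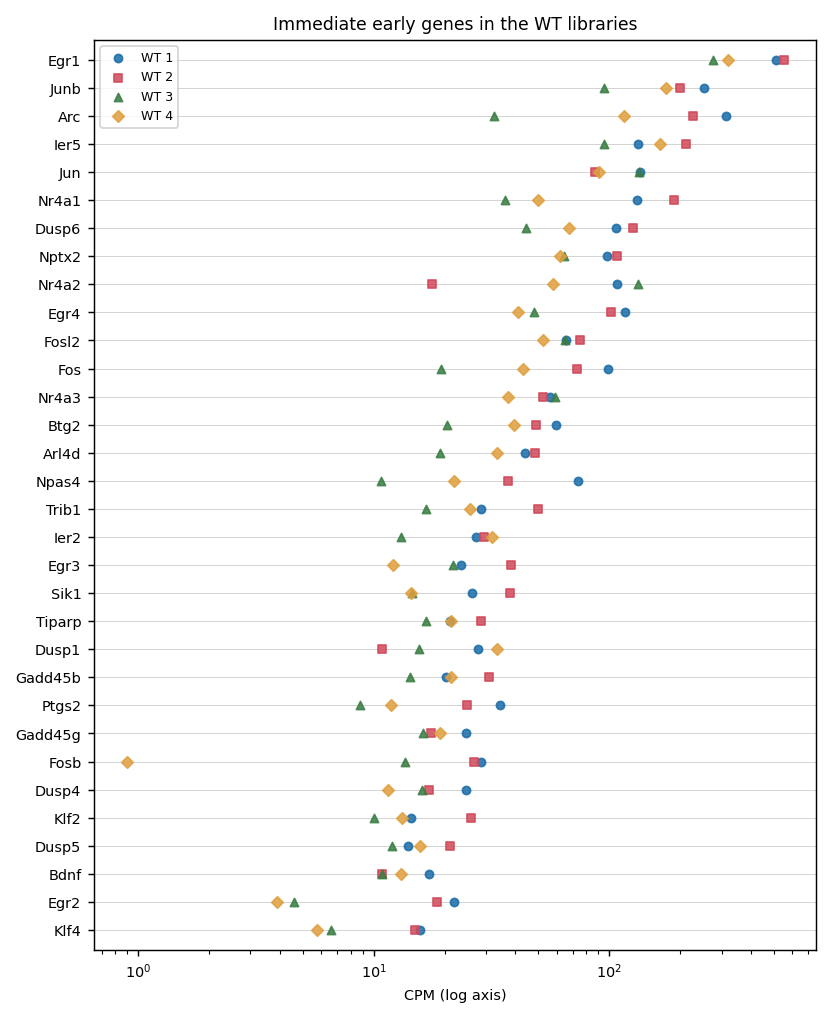
CPM of the 32 immediate early genes averaging 5 CPM or more, on a log axis, 1 point for each of the 4 WT libraries, ordered by mean. Green triangles (WT 3) lie farthest left for 19 genes, among them Arc at 32.4 CPM and Fos at 19.4 CPM, and blue circles (WT 1) or red squares (WT 2) lie farthest right for 28.

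Promoters of these genes often carry sites for CREB, the factor bound to cyclic AMP response elements, and for serum response factor, which binds the CArG box. In the 250 bases before the start, from RefSeq on GRCm38.p6, the core letters TGACGT on either strand occurred in 10 of the 24 immediate early genes with a promoter entry (41.7%), in 11.5% of the 7367 genes with at least 5 CPM and in 7.29% of all 27025 genes. The full palindrome TGACGTCA, which contains the core, occurred in 3 of the 24 (12.5%), against 3.18% and 1.77%. The CArG box occurred in 2 of the 24 (8.33%), against 1.38% and 1.62%. Genes with several starts have several windows, 5 for Egr2, and count once if any window matches. The 4 windows with the core from the genes of largest spread are shown with the core and its reverse complement, and the CArG box of Egr2, in capitals. Egr2 lies at chr10:67537619-67537868 on the plus strand, Npas4 at chr19:4989972-4990221 on the minus strand, Fos at chr12:85473640-85473889 on the plus strand and Egr4 at chr6:85513590-85513839 on the minus strand.
Egr2: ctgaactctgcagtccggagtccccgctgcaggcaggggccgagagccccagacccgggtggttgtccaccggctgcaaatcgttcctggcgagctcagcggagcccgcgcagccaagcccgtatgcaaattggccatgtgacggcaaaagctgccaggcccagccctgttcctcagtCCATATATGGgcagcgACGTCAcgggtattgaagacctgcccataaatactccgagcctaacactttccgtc
Npas4: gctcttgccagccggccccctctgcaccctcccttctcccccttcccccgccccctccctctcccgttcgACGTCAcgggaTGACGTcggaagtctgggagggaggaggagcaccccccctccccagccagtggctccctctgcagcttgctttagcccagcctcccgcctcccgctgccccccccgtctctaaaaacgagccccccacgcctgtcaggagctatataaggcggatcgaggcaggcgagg
Fos: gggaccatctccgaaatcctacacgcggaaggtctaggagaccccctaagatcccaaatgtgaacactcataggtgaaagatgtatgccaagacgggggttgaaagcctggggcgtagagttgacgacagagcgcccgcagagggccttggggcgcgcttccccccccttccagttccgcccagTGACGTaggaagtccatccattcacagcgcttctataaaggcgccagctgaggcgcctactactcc
Egr4: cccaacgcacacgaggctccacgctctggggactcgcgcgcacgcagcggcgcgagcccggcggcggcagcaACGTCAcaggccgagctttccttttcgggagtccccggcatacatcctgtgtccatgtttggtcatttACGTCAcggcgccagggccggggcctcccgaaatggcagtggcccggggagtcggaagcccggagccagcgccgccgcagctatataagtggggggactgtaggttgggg
A match of letters describes the window and does not show a site in use. Junb and Nr4a1 moved with these genes and have no core in their window, while Nr4a3 and Bdnf have one and moved little.

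Myelin genes stood higher in WT 4 than in the other libraries. Mature oligodendrocytes wrap axons with a multilayered membrane, and white matter holds more of them than grey matter. Mog, on the outer myelin surface, was at 49.2, 58.5, 53.7 and 156 CPM, and Cnp, an enzyme of uncompacted myelin, at 214, 255, 255 and 505 CPM. For both genes WT 4 stood above the other libraries, which lay close together. The same held for Cldn11, the myelin tight-junction claudin, at 137, 141, 152 and 354 CPM and for the iron carrier Trf at 244, 271, 283 and 588 CPM. Of the 25 members scored, 22 were highest in WT 4, against 27% of all genes, and 19 (76.0%) differed at least 2-fold, against 20.7% of all genes. The scores were -0.29, -0.23, -0.20 and 0.77, and without WT 4 their range fell from 1.05 to 0.07.

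The lineage factors Sox10, at 11.3, 52.3, 71.2 and 107 CPM, and Olig1, at 186, 183, 218 and 276 CPM, were highest in WT 4 too, and so was Enpp2 at 293, 312, 190 and 345 CPM. The 3 members not highest there were Gsn, at 73.7, 55.9, 47.5 and 48.8 CPM, the myelin adhesion gene Mag, at 33.4, 22.1, 14.0 and 31.4 CPM, and Plekhb1, at 5.94, 14.0, 44.6 and 35.9 CPM. Precursor scores were not highest in WT 4, at 0.06, -0.28, 0.23 and 0.05 in WT 1 to WT 4. WT 2 was lowest, and the range of 0.50 was 0.16 without WT 2. The members were divided: of the 10 scored, 4 were highest in WT 4, against 27% of all genes. Another 4 were highest in WT 3, against 23.9% of all genes. Of the 5 thalamus genes scored, 3 were highest in WT 4, against 27% of all genes, and Prkcd and Lef1 were highest in WT 3. Among the 3 was Slc17a6, the glutamate transporter of subcortical neurons, at 39.6, 18.8, 37.1 and 74.5 CPM. The range of 0.89 of the list was 0.39 without WT 4. The dentate gyrus gene C1ql2 was at 2.97, 1.01, 4.57 and 28.4 CPM. It is 1 of 9 genes of the hippocampus list, which together summed to 29.3, 28.6, 41.2 and 50.1 CPM. In WT 4, C1ql2 alone held 28.4 of these 50.1 CPM. Of the 2 list members that reached a mean of 5 CPM, the other was highest in WT 3. Whether the myelin level in WT 4 went with a different share of white matter or of deeper tissue in the sample was not tested.

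Meningeal fibroblast genes stood higher in WT 1, as did some choroid plexus genes. Of the 11 meningeal fibroblast genes scored, 9 were highest in WT 1, against 27% of all genes, and 10 differed at least 2-fold, against 20.7% of all genes. Their scores were 1.02, -0.20, -0.10 and -0.41. The range of 1.44 was 0.50 without WT 1. The collagen gene Col1a2 was at 33.0, 14.3, 10.8 and 9.06 CPM, the meningeal growth factor Igf2 at 72.7, 35.9, 40.1 and 25.2 CPM and the transporter Slc6a13 at 17.6, 6.78, 6.50 and 4.78 CPM. In each of these WT 1 was the highest. The 2 exceptions were the proteoglycan Dcn, at 30.7, 10.2, 64.5 and 6.57 CPM with WT 3 highest, and Nupr1, at 5.94, 12.9, 7.46 and 7.17 CPM with WT 1 lowest. Ttr, the transthyretin that choroid plexus secretes, was at 25.6 CPM in WT 1 and at 0.916, 1.08 and 2.29 CPM in the others. Kl was at 8.34 CPM in WT 1 and 1.99 to 2.93 CPM in the others, and Kcnj13 at 5.03 CPM against 0.697 to 1.32 CPM. Other members of that list, all low, were highest elsewhere: Sostdc1, Clic6, Aqp1, F5 and Calml4 in WT 3, Kcne2 in WT 2 and Slc4a5 in WT 4. Of the 14 choroid plexus genes, 1 reached 5 CPM, and the markers Folr1 and Otx2 were listed at 0 in all 4 libraries.

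Haemoglobin genes were lowest in the same library. Hbb-bs was at 104, 198, 216 and 193 CPM, Hbb-bt at 48.8, 95.5, 106 and 88.5 CPM, and Hba-a1 at 53.1, 128, 102 and 110 CPM. All 4 haemoglobin genes were lowest in WT 1, against 18.8% of all genes, and the other 3 libraries lay close together. Hba-a1 and Hba-a2 share most of their sequence, 71.4% and 91.0% of windows with other genes, as do Hbb-bs and Hbb-bt, so they are not separate measures. The red cell gene Slc4a1 was listed at 0 in 3 libraries and at 0.842 CPM in WT 3. Endothelial genes differed less: their scores ran from -0.10 to 0.17 with WT 2 and WT 1 at the low end.

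Striatal genes stood higher in WT 3 and upper-layer genes lower. The striatum lies under the cortex, and its projection neurons express dopamine and adenosine receptors, but several genes of the list, such as Ppp1r1b and Adcy5, are also expressed in cortex. Adora2a, the adenosine receptor of indirect-pathway neurons, was at 4.00, 10.6, 50.8 and 9.06 CPM, Drd2 at 2.51, 7.97, 19.4 and 2.39 CPM and Lrrc10b at 10.2, 13.5, 38.9 and 6.87 CPM. Ppp1r1b was at 162, 200, 275 and 181 CPM and Adcy5 at 452, 415, 586 and 357 CPM. WT 3 was the highest in all 5. Of the 14 members scored, 10 were highest in WT 3, against 23.9% of all genes, and the score there was 0.51 against -0.29 to -0.06. The range of 0.80 was 0.30 without WT 3. The neuropeptide genes Penk and Pdyn moved little, at 56.8 to 82.5 and 33.5 to 41.2 CPM, and Strip2 was lowest in WT 3 at 1.80 CPM.

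Upper-layer scores were 0.09, 0.11, -0.58 and 0.08, so 3 libraries lay together and WT 3 apart. Of the 8 genes scored 5 were lowest in WT 3, against 25.1% of all genes. These were Rasgrf2 with the values above, the POU-domain factor Pou3f2 at 52.4, 64.9, 26.6 and 58.9 CPM, and Stard8 at 49.1, 82.5, 28.5 and 43.0 CPM. The potassium channel Kcnh5, at 27.1, 39.1, 14.1 and 36.9 CPM, and Rspo1, at 10.1, 9.44, 5.78 and 31.5 CPM, were the others. Cux1, at 84.8, 67.3, 58.7 and 56.8 CPM, and Lhx2, at 178, 133, 151 and 124 CPM, were lowest in WT 4. Scnn1a, at 4.91, 1.28, 5.90 and 14.7 CPM, was lowest in WT 2. The range of the upper-layer scores, 0.69, was 0.22 without WT 3, and 1.09 with the step genes kept in. Deep-layer scores ran differently, at 0.12, -0.33, 0.26 and 0.15, with 8 of 12 genes lowest in WT 2, against 31.1% of all genes, and a range of 0.60 that was 0.16 without WT 2. Ntsr1, of layer 6 neurons that project to the thalamus, was at 24.6, 11.6, 26.7 and 18.1 CPM, Rprm at 167, 91.8, 136 and 140 CPM, and Moxd1 at 15.1, 7.88, 21.1 and 8.86 CPM. Pou3f1 went against the list, at 32.3, 99.1, 26.7 and 96.1 CPM. Fezf2 was lowest in WT 3 too, at 53.5, 26.3, 10.8 and 57.0 CPM. Bcl11b and Crym were lowest in WT 4, at 113 and 75.1 CPM. The deep-layer range was 0.39 by the mean over members and 0.47 with a mean of at least 10 CPM, both below 0.5.

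Ribosomal protein genes were lowest in WT 2 and highest in WT 3 and WT 4. These genes encode the proteins of the cytosolic ribosome and are short and abundant. Rplp1 was at 853, 640, 1080 and 969 CPM, Rps29 at 319, 230, 435 and 455 CPM and Rpl37 at 324, 258, 423 and 424 CPM. Of the 73 scored, 50 were lowest in WT 2, against 31.1% of all genes, and the scores were -0.09, -0.30, 0.20 and 0.21. The range of 0.51 was 0.29 without WT 2. Nuclear-encoded respiratory chain genes, also short, had scores of -0.08, -0.15, 0.11 and 0.12. Transcript length moved with these lists: over the 339 genes shorter than 1000 nt the median centred value was -0.05, -0.18, 0.14 and 0.09, again lowest in WT 2 and highest in WT 3 and WT 4, and over the 1286 genes of 6000 nt or more it was 0.08, 0.02, -0.04 and -0.03. The part of length in the ribosomal result was not tested.

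Excitatory and synaptic vesicle lists differed less and were highest in WT 2. Excitatory scores were -0.05, 0.28, -0.18 and -0.03, with 8 of 11 genes highest in WT 2, against 22.1% of all genes. Genes of synaptic vesicle release were highest there too, for 16 of 27, again against 22.1%, with scores of -0.01, 0.20, -0.09 and -0.09. Astrocyte genes ran the other way, with 13 of 21 lowest in WT 2, against 31.1% of all genes. In WT 4, 12 of the 21 were highest, against 27% of all genes. Microglial genes were lowest in WT 2 for 11 of 16, again against 31.1%. The ranges of these scores were 0.46, 0.29, 0.38 and 0.39.

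Among genes with 1 RefSeq transcript, where step genes were rarest, 11.5% of 2509 differed at least 2-fold. Ranked by SD among the 2217 of them with at least 10 CPM, a ranking added after the data were seen, the most variable were Lamtor5, at 0.366 CPM in WT 2 and 48.1 CPM in WT 4, and the respiratory subunit Ndufb10 at 118, 7.05, 6.98 and 121 CPM. For Ndufb10 WT 1 and WT 4 were high and WT 2 and WT 3 low. H2-D1, a classical MHC class I gene, was at 23.8, 38.5, 1.20 and 44.6 CPM. Of its 31-base windows, 27.5% also occur in transcripts of other genes. Scn4b, a sodium channel beta subunit, was at 48.4, 272, 134 and 201 CPM, and the postsynaptic adhesion gene Nlgn3 at 238, 112, 40.2 and 167 CPM. The meningeal transporters Slc6a20a, at 32.0, 12.4, 2.53 and 13.8 CPM, and Slc13a4, at 28.2, 7.42, 7.34 and 3.29 CPM, were highest in WT 1, as was the proteoglycan Fmod at 29.8 CPM against 5.18 to 12.3 CPM. Cbln1, a synapse organiser, was at 17.6, 7.60, 42.8 and 41.8 CPM. The 40 most variable genes of this kind also include Fos, Sox10, Lrrc10b and Pou3f1, described above with their lists.

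Tet1, the gene on which the series is built, was listed at 0 in all 4 WT libraries, and so was Tet3. Tet2 was at 42.2, 39.7, 31.4 and 36.3 CPM, a 1.34-fold range. Since Gapdh and Cltc are listed at 0 as well, these zeros do not measure the expression of Tet1 or Tet3. The Y-linked genes Ddx3y, at 64.3, 81.4, 89.0 and 97.6 CPM, and Kdm5d, at 29.4, 19.4, 21.3 and 20.2 CPM, had counts in every WT library, and Xist, the RNA of the inactive X chromosome, was listed at 0 in all 4.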

How the data were processed

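RNA-seq libraries were made from total RNA of whole adult cortex after selection of poly(A) RNA on oligo d(T) beads, per the labels' protocols. The authors deposited a table of estimated counts per gene symbol, which held whole numbers. The submitters' processing notes name STAR 2.7.1a and StringTie 2.2.3 beside FastQC, SAMtools 1.9 and Trim Galore 0.6.7, and the builds GRCm39 and mm10, without saying which step used which. The sources used here do not say how reads of genes with several transcripts or copies were assigned.

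The 4 WT columns were divided by their totals, 8310783 to 10915574 counts, to give CPM. The 25 symbols that stood on more than 1 line (56 lines, 0.425% to 0.567% of counts) were left out after the totals were taken. Spread was measured on log2(CPM + 0.5) for genes with a mean of at least 5 CPM. Transcript lengths of 21648 symbols came from GENCODE vM21 and transcript numbers of 21699 from RefSeq on GRCm38.p6. List scores used members with a mean of at least 5 CPM that were no step genes. WT was not compared with another group, so the only test is Dixon's, for a library that stands apart, and counts of members are set beside the same count over all genes. No molecular identifiers are mentioned, so PCR copies may be counted as molecules and depth bears on counting error only.

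Genes named were the 25 highest by CPM and by CPM per kb, the 25 most variable of at least 10 CPM, the 15 most even of at least 100 CPM, the 10 step genes of highest level, and from each list up to 4 of the highest and 3 of the most variable members. Further members of the lists were named after their values were seen. The members and lists were chosen with earlier results of these data known. Alternatives covered scaling (TMM from edgeR 4.0.16, size factors from DESeq2 1.42.0, both in R 4.3.3), pseudocount, filter, step genes, transcript number and each library left out. The spread calculation was tested on simulated data. Python 3.11.15, numpy 2.4.6, pandas 2.3.3 and matplotlib 3.10.9 were used. Some genes of the lists are not reported here by name.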

Additional observations from a re-analysis of the deposited data

Results flagged for a closer look

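Of 231 values tested over the 4 WT libraries, most of them CPM of single genes, 30 had 1 library whose gap to the nearest other library took more of the whole range than Dixon's 95% critical value for 4 samples allows. Chance gives such a gap in about 5% of groups of 4 that are not chosen by their spread. Many of these genes were named for their spread, and in several the gap is set by values of 0, so that rate is no yardstick here. By library, 8 were for WT 1, 3 for WT 2, 9 for WT 3 and 10 for WT 4.

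WT 4 stood apart in the score of myelin genes (0.77) and in 4 genes of that list, Mog at 156, Cnp at 505, Cldn11 at 354 and Trf at 588 CPM. It was also apart for the dentate gyrus gene C1ql2 at 28.4, the kinesin Kif5c at 2531 and Rspo1 at 31.5 CPM.

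WT 1 stood apart for the meningeal transporters Slc6a13 at 17.6 and Slc13a4 at 28.2 CPM and for the choroid plexus genes Ttr at 25.6, Kl at 8.34 and Kcnj13 at 5.03 CPM. It was lowest and apart for the vesicular GABA transporter Slc32a1 at 119 CPM, and the step genes Otof and Kmt2d were at 71.0 and 0 CPM there.

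WT 3 stood apart in the score of upper-layer genes (-0.58). Single genes apart in WT 3 were Adora2a at 50.8, Map2 at 415, Ndufa4 at 174, Chgb at 639, Lrrc4b at 364, Cdh5 at 24.4, Reln at 1.32 and Slc4a1 at 0.842 CPM. Lrrc4b and Cdh5 are even genes, in which the gap is a small part of the level.

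WT 2 stood apart for the neuropeptide gene Cck at 771 and the step gene Cux2 at 13.2 CPM, and Kcne2 held 0.458 CPM in WT 2 alone. In WT 4, Lgi1 was at 0 CPM and Slc4a5, at 0 in the others, at 0.697 CPM.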

How the results depend on the processing

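No paired analysis was possible because only WT libraries were used and no group was compared with them. Of 188 alternatives computed, 158 stayed within the limit set for their value and 30 did not. The share of genes that differed at least 2-fold (24.1%) was 31.3% with a mean of at least 1 CPM, 20.4% with at least 10 CPM, 32.0% with no filter beyond a count in any WT library, 20.7% without step genes and 12.5% over genes with 1 RefSeq transcript. The median SD (0.229) was 0.274, 0.208, 0.292, 0.218 and 0.186 under the same 5 settings, and 0.276 as edgeR's tagwise biological coefficient of variation, which is another measure. Leaving out 1 library at a time gave 18.0% to 19.0% and 0.203 to 0.224, and a range over 3 libraries is smaller by construction. The number of genes holding 50% of the counts (666) was 1, Bc1, on CPM per kb, and 659 to 671 with a library left out. Step genes numbered 731 from 50 counts in the highest library, 245 from 200, and 334 to 348 with a library left out. The 9 lists with a score range of at least 0.5 were 6 or 7 with a library left out, 7 with TMM or DESeq2 size factors and 13 with no filter. Of 131 alternatives for the ranges of those 9 lists, 9 moved: 7 were the library left out that is given beside each list, and the others were thalamus at 1.32 by the mean over members and upper layers at 1.09 with step genes kept. Scores and the ranking over genes with 1 RefSeq transcript were added after the data were seen. Leaving out mitochondrially encoded genes was not run, since no symbol of that list was matched. Of genes of 5 to 20 CPM 42.2% differed at least 2-fold and 10.6% were step genes, and the part of depth in that was not tested.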
